A study of Mus musculus with 12 samples.

Results

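The proteasome genes of the mouse nucleus accumbens were taken as all genes whose symbol in the array's probe-to-gene table starts with Psma, Psmb, Psmc, Psmd, Psme, Psmf or Psmg. The table held 49 such symbols with 86 probes. A gene was kept where its brightest probe had a detection p-value under 0.05 on at least 3 of 12 arrays, which left 44 of the 12732 genes kept on the array. Of these, 42 were detected on all 12 arrays. The core subunit genes Psma1, Psma3 and Psma6, the lid gene Psmd3 and the assembly gene Psmg4 were detected on 0 arrays by any of their probes and were not used here. Psmd3 had 2 probes and each of the others 1. Whether these probes can measure their transcripts was not tested, so the genes cannot be called absent from the tissue. Psmc3ip, a cofactor of meiotic recombination, and Psme3ip1, which encodes a protein that binds an activator subunit, share the symbol prefix without being subunits of the particle, and 42 genes remained without them.

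The arrays measured messenger RNA in punches of the nucleus accumbens, a striatal region of the brain's reward circuit, from C57BL/6J mice of 8 to 10 weeks. Every mouse received 15 daily intraperitoneal injections and was killed 1 h after the last one. Acute mice received 14 saline injections and then 1 injection of 20 mg/kg cocaine-HCl. Repeated mice received 7 saline injections and then 8 of 20 mg/kg cocaine-HCl, so their last injection was also cocaine. Withdrawal mice received 7 injections of 20 mg/kg cocaine-HCl, 7 of saline and 1 cocaine challenge at the same dose. Saline mice received 15 saline injections. Each group of 12 mice gave 3 arrays, each hybridised with RNA pooled from the bilateral punches of 4 mice, so differences between individual mice were averaged before measurement.

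The proteasome is the large protease that degrades ubiquitin-tagged proteins. Its 20S core is a barrel of alpha and beta rings with the active sites inside. The 19S regulatory particle caps the barrel, with a base of ubiquitin receptors and ATPases that unfold substrates, and a lid that removes the ubiquitin. Other caps (PA28, PA200) can replace it, and dedicated chaperones assemble both parts. In cells exposed to interferon-gamma, 3 active-site subunits are replaced by immunoproteasome forms. In neurons, proteasome activity takes part in the remodelling of synapses.

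Between 22189 and 23803 probes were detected per array, and arrays correlated at 0.973 to 0.992 over the kept probes. All 9 markers of medium spiny neurons on the array, such as Ppp1r1b, Drd1 and Drd2, were kept. Markers of cortical neurons, which a punch may include, varied between arrays: their summed intensity was 468 to 1358 in acute, 105 to 1287 in repeated, 212 to 1784 in withdrawal and 113 to 1823 in saline arrays. The 3 kept markers of choroid plexus and ependyma, of 5 on the array, were low on acute arrays, repeated replicate 3 and withdrawal replicate 2. Their median deviation from their own mean was -1.35 to -0.23 in acute and -0.42 to 0.35 in repeated arrays. It was -0.46 to 0.08 in withdrawal arrays and 0.24 to 0.53 in saline arrays. Their summed intensities were 74.0 to 273 in acute, 190 to 990 in repeated, 159 to 1800 in withdrawal and 665 to 782 in saline arrays. Ttr, the choroid plexus transthyretin gene, differed by -3.96 in acute arrays, with a limma adjusted p of 1.00. The part of these tissues in the differences described here was not tested. The values were quantile normalized by the authors, so a difference is relative to all other probes of the array and a change in total messenger RNA cannot be seen. In punches of mixed cells, fewer cells of a type and less RNA per cell cannot be told apart.

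Most proteasome genes had slightly lower mean levels after cocaine than after saline, but no single gene passed the test. Against saline, 32 of 44 genes were lower in acute arrays, where 50.9% of all genes were lower. In repeated arrays 33 of 44 were lower, against 50.9% of all genes, and in withdrawal arrays 33 of 44, against 51%. The median log2 differences of the 44 genes were -0.08, -0.10 and -0.11 in the acute, repeated and withdrawal groups, where the medians over all genes were -0.00 in each. Most proteasome genes are bright on the array; of all genes with a mean log2 intensity of 9 or more, 48.7%, 47% and 49% were lower in the acute, repeated and withdrawal groups. These 3 comparisons share the saline arrays, so their counts are not independent of each other. With limma's moderated test and Benjamini-Hochberg adjustment over 25478 kept probes, 0 of 44 genes had an adjusted p under 0.05 in any comparison with saline, and 0 of the 25478 probes did (0%). All standard errors below come from that fit, with 3 arrays in each group. The lowest adjusted p of a proteasome gene was 1.00 in the acute, 0.479 in the repeated and 0.626 in the withdrawal comparison.

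At an unadjusted p under 0.05, 2 genes were lower and 0 higher in acute arrays, where 2.1% of all genes were lower and 1.64% higher. In repeated arrays 8 genes were lower and 1 higher at that level, against 4.91% lower and 3.68% higher of all genes. Psmc3ip, which is not a subunit, was among these 8, at -0.28, and 7 were lower without it and Psme3ip1. In withdrawal arrays 5 were lower and 1 higher, against 3.77% and 3.38%. These counts moved with single arrays. The acute count of 2 was 1 without acute replicate 2 and 4 without acute replicate 1 or 3 or saline replicate 3. The repeated count of 9 in both directions was 2 without saline replicate 2, 3 without repeated replicate 2 or saline replicate 1, and 4 without repeated replicate 3. The withdrawal count of 6 was 0 without withdrawal replicate 1, 1 without saline replicate 2, 2 without withdrawal replicate 3 and 3 without saline replicate 1. The series' own criteria, at least a 1.3-fold change with an unadjusted p under 0.05, took 1 proteasome gene in each of the 3 comparisons (Psmc6 in acute, Psmb8 in repeated and Psmb10 in withdrawal arrays), against 2.14%, 3.74% and 2.82% of all genes in the acute, repeated and withdrawal comparisons.

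Counted by arrays, 6 genes in the acute group lay with all 3 arrays below all saline arrays and 1 with all 3 above, where 4.17% and 3.1% of all genes did. The repeated group had 15 such genes below and 3 above, against 9.46% and 7.81% of all genes. In the withdrawal group 12 genes lay below and 1 above, against 7.97% and 6.9%. Without Psmc3ip and Psme3ip1, 14 genes lay below in the repeated group and 11 in the withdrawal group.

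For the mean of the cocaine groups, 35 of 44 genes were lower than saline, against 50.5% of all genes and 46.8% of those with a mean log2 intensity of 9 or more, with a median of -0.08, or -0.12 without saline replicate 3. In limma's test 0 genes had an adjusted p under 0.05, and 7 were lower and 1 higher at an unadjusted p under 0.05, against 4.47% and 3.24% of all genes. That count of 8 was 3 without saline replicate 1 or 2, 4 without repeated replicate 2, and 5 without acute replicate 3, repeated replicate 3, or withdrawal replicate 1 or 3. Leaving out Psmc3ip and Psme3ip1, 6 genes were lower at that level. The series' criteria took 0 of 44, against 2.32% of all genes. Over all 9 cocaine arrays, Psmb1 and Psmb3 were the proteasome genes that lay below all 3 saline arrays, 2 of 44, where 1.17% of all genes did, and 0 lay above them, where 0.73% did. For Psmb3 the gap was narrow, with withdrawal replicate 2 at 11.721 and saline replicate 1 at 11.725.

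The level of the whole set on an array was summarised as the median deviation of the 44 genes from their own mean over 12 arrays, on the log2 scale. It was 0.06, -0.05 and -0.02 on acute replicates 1 to 3, -0.02, -0.07 and -0.04 on the repeated arrays and -0.11, 0.05 and -0.02 on the withdrawal arrays, against 0.09, 0.07 and 0.03 on the saline arrays. All repeated arrays lay below all saline arrays, while acute replicate 1 and withdrawal replicate 2 lay among them. On saline arrays 32, 35 and 29 of the genes were above their own mean, and on repeated arrays 20, 15 and 13 were. Acute replicate 1 had 33 genes above and withdrawal replicate 2 had 32, against 21 and 19 on the other acute arrays and 10 and 15 on the other withdrawal arrays. Without acute replicate 3 or without saline replicate 2 the acute median difference was -0.04, and without withdrawal replicate 1 the withdrawal median was -0.07.

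**Figure D1:**
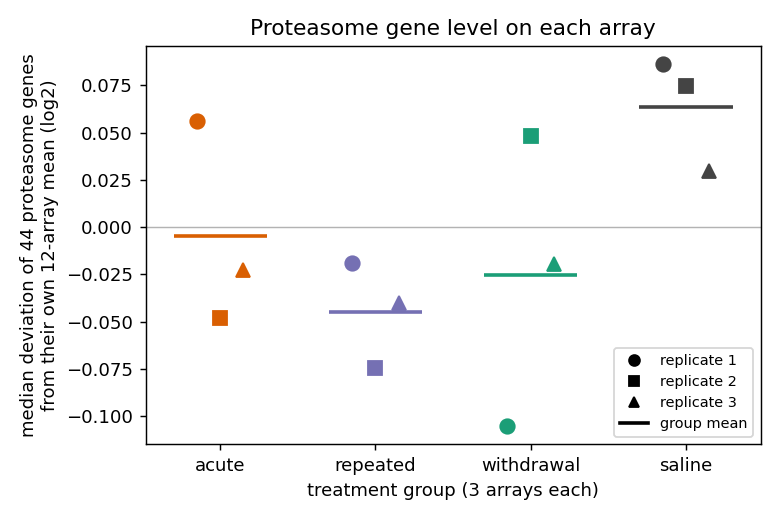
Level of the proteasome genes on each of 12 arrays: the y axis gives the median deviation of the 44 genes from their own 12-array mean (log2), the x axis the treatment group, symbols the replicate number and bars the group mean. The 3 repeated arrays sit at -0.07 to -0.02, below the saline arrays at 0.03 to 0.09, and the acute and withdrawal arrays spread across both.

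Grouped by role, the medians were not the same. The 12 genes of the 20S core other than the immuno- and thymoproteasome forms had median log2 differences of -0.09, -0.17 and -0.11 in the acute, repeated and withdrawal groups, with 10, 11 and 10 of 12 lower. The 16 genes of the 19S particle had medians of -0.01, -0.02 and -0.07, with 8, 11 and 12 of 16 lower. The immuno- and thymoproteasome subunits had medians of -0.19, -0.24 and -0.33 over 4 genes, and the 20S assembly chaperones of -0.10, -0.30 and -0.25 over 3 genes. The 6 ATPases were close to the medians of all genes, at -0.02, -0.03 and -0.05. Whether roles differed from each other was not tested.

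**Figure D2:**
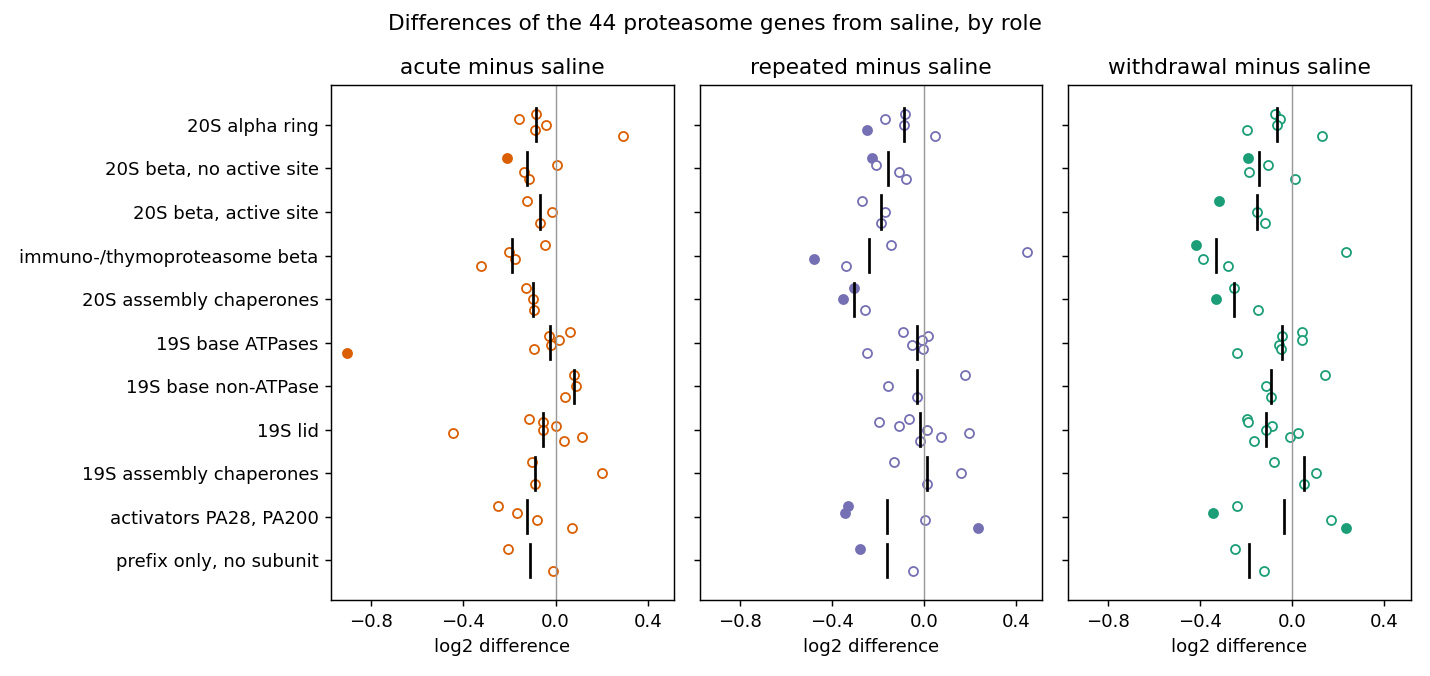
Log2 differences of each of the 44 proteasome genes from saline in the acute, repeated and withdrawal groups, with genes grouped by role down the page; short black bars are medians of a role, and filled points have an unadjusted p under 0.05. The 20S assembly chaperones lie left of 0 in each panel, the 19S ATPases scatter around 0 apart from Psmc6 at -0.91 in the acute panel, and Psme4 is the filled point right of 0.

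Among the core subunits, Psmb1, a beta subunit without an active site, separated all cocaine arrays from all saline arrays. Its log2 intensity was 11.50, 11.38 and 11.40 on the acute arrays, 11.44, 11.39 and 11.41 on the repeated arrays and 11.47, 11.39 and 11.48 on the withdrawal arrays, against 11.63, 11.70 and 11.58 on the saline arrays. The highest of the 9 cocaine arrays lay below the lowest saline array, and the cocaine groups themselves overlapped. The log2 difference from saline was -0.21 ± 0.08 (SE) in acute, -0.22 ± 0.08 in repeated and -0.19 ± 0.08 in withdrawal arrays, and -0.21 ± 0.06 for the mean of the cocaine groups. Limma's adjusted p was 1.00, 0.479 and 0.626 for the groups in that order and 0.496 for their mean.

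Psmb3, also without an active site, differed from saline by -0.14, -0.11 and -0.19 in the acute, repeated and withdrawal groups, and Psmb2 by 0.00, -0.21 and -0.10. Psmb4, the remaining beta subunit of that kind, was at -0.11, -0.08 and 0.01. A second probe of Psmb2 gave -0.12, -0.29 and -0.23. In the alpha ring, which gates entry to the barrel, Psma7 differed by -0.09, -0.25 and -0.19, Psma4 by -0.16, -0.17 and -0.05, Psma2 by -0.09, -0.08 and -0.07 and Psma5 by -0.04, -0.09 and -0.07. All 4 of these alpha genes were lower than saline in each group, and none passed the test. Psma8, the testis form of an alpha subunit, was detected on 6 of 12 arrays, near background, and its differences of 0.29, 0.05 and 0.13 rest on dim values.

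The catalytic subunits of the constitutive core are encoded by Psmb5, with chymotrypsin-like activity, Psmb6, with caspase-like activity, and Psmb7, with trypsin-like activity. Log2 intensities of Psmb5 were 10.08, 9.74 and 9.88 on the acute arrays, 9.91, 9.62 and 9.73 on the repeated arrays and 9.57, 9.86 and 9.69 on the withdrawal arrays, against 10.10, 10.09 and 9.87 on the saline arrays. All withdrawal arrays lay below the saline arrays, though withdrawal replicate 2 lay just under saline replicate 3, and the other groups overlapped with saline. Psmb5 differed from saline by -0.13 ± 0.13, -0.27 ± 0.13 and -0.32 ± 0.13 (SE) in acute, repeated and withdrawal arrays, with limma adjusted p values of 1.00, 0.578 and 0.626.

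Psmb6 measured 12.09, 11.92 and 11.86 on the acute arrays, 11.93, 11.72 and 11.76 on the repeated arrays and 11.78, 11.82 and 11.85 on the withdrawal arrays, against 12.05, 11.96 and 11.91 on the saline arrays. Only the withdrawal arrays were all below the saline arrays. For Psmb7 the values were 12.02, 11.77 and 11.92 on the acute arrays, 11.83, 11.77 and 11.74 on the repeated arrays and 11.91, 11.82 and 11.82 on the withdrawal arrays, against 12.05, 12.01 and 11.84 on the saline arrays. Here the repeated arrays were the ones below all saline arrays. The differences were small for both genes: -0.02, -0.17 and -0.15 for Psmb6 and -0.07, -0.19 and -0.12 for Psmb7, each with a standard error of 0.10 and limma adjusted p values of 0.627 and 0.59 in the repeated comparison.

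The immunoproteasome subunits Psmb8, Psmb9 and Psmb10 take the places of these 3 in immune cells and in cells exposed to interferon. Psmb8 was at 6.93, 6.40 and 6.27 on the acute arrays, 6.52, 5.94 and 6.25 on the repeated arrays and 6.27, 6.36 and 6.35 on the withdrawal arrays, against 6.98, 6.64 and 6.52 on the saline arrays. All repeated and withdrawal arrays were below the saline arrays, though repeated replicate 1 lay just under saline replicate 3, and acute replicate 1 was close to the highest saline array. Its difference was -0.18 ± 0.20, -0.48 ± 0.20 and -0.39 ± 0.20 (SE) in acute, repeated and withdrawal arrays. The repeated difference is a 1.39-fold lower level, the 1 gene that met the series' criteria there, with a limma adjusted p of 0.532. From unsubtracted signals it was -0.28. A second, dimmer probe of Psmb8, detected on 6 arrays, gave 0.02, -0.51 and -0.49.

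Psmb9 was at 5.83, 4.64 and 5.30 on the acute arrays, 5.41, 5.06 and 5.26 on the repeated arrays and 5.10, 5.39 and 5.41 on the withdrawal arrays, against 5.71, 5.21 and 5.82 on the saline arrays. Every cocaine group overlapped with saline, and acute replicate 2 was the lowest array of all. Psmb10 was at 9.35, 9.35 and 9.29 on the acute arrays, 9.06, 9.36 and 9.27 on the repeated arrays and 8.85, 9.31 and 8.70 on the withdrawal arrays, against 9.21, 9.62 and 9.29 on the saline arrays. Acute and repeated arrays lay within the saline range or close to it, and withdrawal replicates 1 and 3 were lower than all other arrays while withdrawal replicate 2 was not. Differences from saline were -0.32, -0.34 and -0.28 for Psmb9 and -0.05, -0.14 and -0.42 for Psmb10. The probe of Psmb9 is dim, and from unsubtracted signals its differences were -0.12, -0.14 and -0.12. Its acute difference was -0.01 without acute replicate 2 and -0.61 without acute replicate 1. Without saline replicate 2 the differences of Psmb9 were -0.51, -0.52 and -0.47, and without saline replicate 3 they were -0.20, -0.21 and -0.16. The withdrawal difference was -0.18 without withdrawal replicate 1. The withdrawal difference of Psmb10 was a 1.34-fold lower level, with a limma adjusted p of 0.626. A second probe of Psmb10 gave -0.08, -0.23 and -0.40. Psmb11, the thymus form, was detected on 5 of 12 arrays and stayed near background. Its differences of -0.20, 0.45 and 0.23 in acute, repeated and withdrawal arrays rest on dim values.

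**Figure D3:**
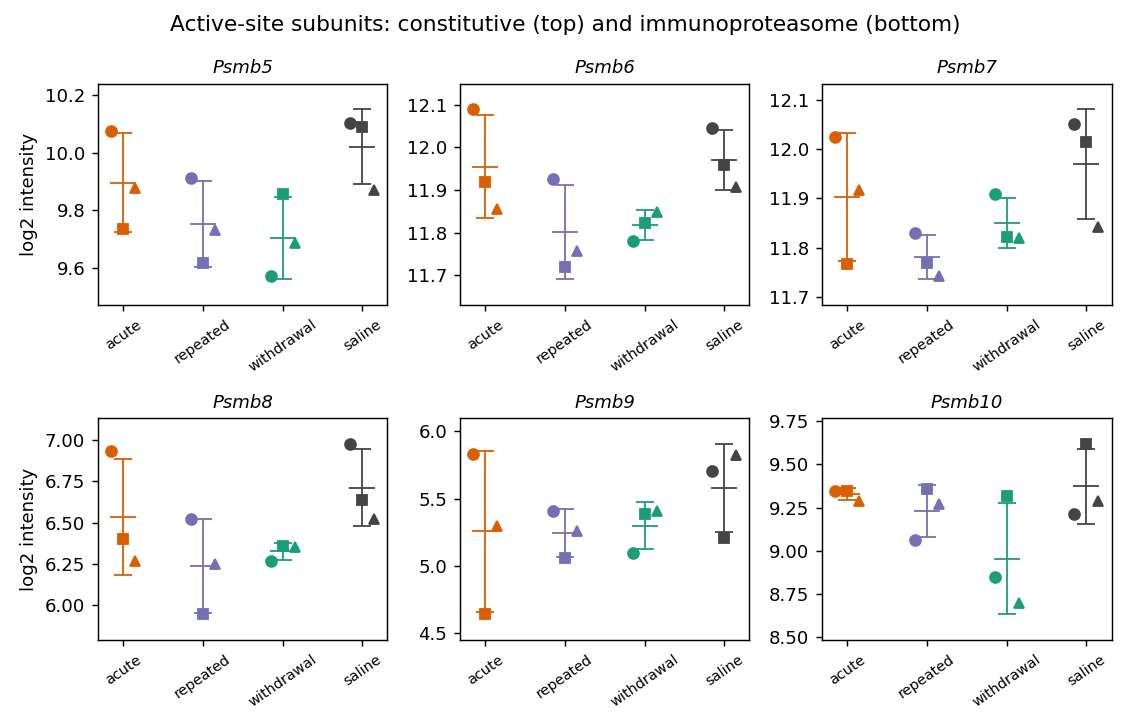
Log2 intensity of the active-site subunit genes on each array, constitutive Psmb5, Psmb6 and Psmb7 in the top row and immunoproteasome Psmb8, Psmb9 and Psmb10 in the bottom row, by treatment group; circles, squares and triangles are replicates 1, 2 and 3, and lines give the mean and SD. The y axes differ between panels and do not start at 0. Repeated arrays of Psmb7 and Psmb8 lie below all saline arrays, and 2 of 3 withdrawal arrays of Psmb10 lie below every other array.

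Psmb8 and Psmb9 lie beside the peptide transporter genes Tap1 and Tap2 in the genome, and immunoproteasome peptides are loaded on MHC class I molecules. With the transcription factor gene Irf1, 7 genes around that loading route were measured. Of these, 4, 3 and 6 were lower in acute, repeated and withdrawal arrays, and 0 passed the adjusted threshold. Irf1 itself was higher in each group, at 0.01, 0.11 and 0.19. B2m, the light chain of MHC class I, differed by -0.14, -0.24 and -0.25, Tap2 by 0.38, 0.43 and -0.05 and Tapbpl, a peptide editor, by -0.37, 0.00 and -0.20. Microglia are among the brain cells that express immunoproteasome genes. Of 12 kept microglial markers, 10, 10 and 11 were lower than saline, with medians of -0.11, -0.16 and -0.19, and Itgam was the 1 of 13 on the array that was not kept. Their summed intensity was 5686 to 6897 in acute, 5561 to 6292 in repeated and 5445 to 6175 in withdrawal arrays, against 6125 to 6629 in saline arrays. Of 7 kept blood cell markers, most of them haemoglobin genes, 6, 7 and 6 were lower, with medians of -0.19, -0.34 and -0.17. The white cell genes S100a8, S100a9 and Ptprc, of 10 blood cell markers on the array, were not kept. The part of these cells in the differences of Psmb8, Psmb9, Psmb10, Psme1 and Psme2 was not tested.

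Proteasome genes are known targets of the factor NFE2L1, which binds the antioxidant response element and raises their transcription when proteasome activity is low, and immunoproteasome genes are known targets of interferon-induced factors. Promoter windows of 300 bases, 250 before and 50 after the start, were found in RefSeq (GRCm38.p6) for 37 of the 44 genes and searched on both strands. The element's core TGACNNNGC was present in 6 of 37 windows (16.2%), those of Psmb5, Psmb6, Psmc6, Psmd9, Psmd12 and Psme4, where 14% of 27025 genes had it. The core of the interferon-stimulated response element, written as GAAA, any 2 bases and GAAA, was present in 4 of 37 (10.8%), those of Psmb3, Psmd4, Psmd9 and Psme1, where 3.99% of genes had it. The immunoproteasome genes Psmb8, Psmb9 and Psmb10 were not among these 4, each having no match or no window. The match of Psme1 reached into the 50 bases after the start. The shares are descriptions of letters in a window and show no binding. The first 250 bases are printed for 3 genes, catalytic subunits Psmb5 and Psmb6 and the ATPase gene Psmc6, which had the largest difference of all; capitals mark the match, on the opposite strand in Psmc6. They lie at chr14:54617996-54618245 (minus strand), chr11:70525107-70525356 (plus strand) and chr14:45329574-45329823 (plus strand), and are written 5′ to 3′ along the gene.
Psmb5: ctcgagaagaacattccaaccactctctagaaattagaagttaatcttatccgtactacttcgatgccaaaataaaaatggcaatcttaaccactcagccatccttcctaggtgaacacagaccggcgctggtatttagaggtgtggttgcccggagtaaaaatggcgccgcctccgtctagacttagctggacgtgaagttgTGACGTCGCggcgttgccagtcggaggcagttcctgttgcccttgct
Psmb6: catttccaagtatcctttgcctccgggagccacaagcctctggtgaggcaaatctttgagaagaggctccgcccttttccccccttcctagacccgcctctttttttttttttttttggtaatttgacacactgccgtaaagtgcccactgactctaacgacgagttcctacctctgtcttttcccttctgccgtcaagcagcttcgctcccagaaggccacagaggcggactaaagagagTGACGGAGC
Psmc6: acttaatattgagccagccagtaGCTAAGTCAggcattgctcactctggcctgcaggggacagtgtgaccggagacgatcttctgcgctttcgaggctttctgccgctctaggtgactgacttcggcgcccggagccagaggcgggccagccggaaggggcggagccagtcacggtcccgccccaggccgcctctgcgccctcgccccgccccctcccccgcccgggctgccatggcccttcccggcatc

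The chaperones that build the 20S barrel were lower than saline in each group. Psmg1 and Psmg2 form a dimer that assembles the alpha ring, and Psmg3 acts with Psmg4 at the same step. Psmg2 was at 9.35, 9.47 and 9.14 on the acute arrays, 9.07, 9.20 and 8.94 on the repeated arrays and 8.87, 9.29 and 9.10 on the withdrawal arrays, against 9.28, 9.55 and 9.43 on the saline arrays. All repeated arrays were below the saline arrays, and withdrawal replicate 2 just reached the lowest saline array. Psmg1 was at 8.33, 8.43 and 8.17 on the acute arrays, 8.03, 8.12 and 8.24 on the repeated arrays and 8.07, 8.27 and 8.19 on the withdrawal arrays, against 8.26, 8.63 and 8.41 on the saline arrays. Its repeated arrays were again all below saline, and its acute and withdrawal arrays overlapped with saline.

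Differences from saline were -0.10 ± 0.14, -0.35 ± 0.14 and -0.33 ± 0.14 (SE) for Psmg2 in acute, repeated and withdrawal arrays, with limma adjusted p values of 1.00, 0.516 and 0.626. The other probes of Psmg2 were also lower, at -0.18, -0.23 and -0.09 and at -0.13, -0.08 and -0.24. Psmg1 differed by -0.13 ± 0.12, -0.30 ± 0.12 and -0.25 ± 0.12 (SE), with a limma adjusted p of 0.523 in the repeated group, and Psmg3 by -0.10, -0.25 and -0.15. None of the 3 genes passed the adjusted threshold. Pomp, a chaperone of the beta ring with a different symbol prefix, differed by -0.09, -0.17 and -0.16.

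In the 19S base, the ATPase gene Psmc6 had the largest difference of any proteasome gene, and only in the acute comparison did its arrays separate from saline. Its log2 intensity was 5.41, 4.53 and 5.61 on the acute arrays, 5.82, 6.09 and 5.62 on the repeated arrays and 5.77, 6.09 and 5.69 on the withdrawal arrays, against 6.10, 6.42 and 5.75 on the saline arrays. All acute arrays were below all saline arrays, and acute replicate 2 was the lowest. The acute difference was -0.91 ± 0.28 (SE), with a 95% interval of -1.52 to -0.29 and a limma adjusted p of 1.00; the repeated and withdrawal differences were -0.25 and -0.24. The probe is dim, and the size of the difference depends on the scale: the acute difference was -0.40 from unsubtracted signals and -0.58 without acute replicate 2. The other 5 ATPase genes, Psmc1 to Psmc5, differed from saline by -0.09 to 0.06 on their brightest probes. A second, dimmer probe of Psmc2 gave 0.15, -0.05 and -0.31 in acute, repeated and withdrawal arrays, and a second probe of Psmc5 gave 0.03, -0.08 and 0.05.

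The base scaffold gene Psmd1 differed by 0.08, 0.18 and 0.14 and its repeated arrays lay above all saline arrays, while its other probes gave -0.07, 0.16 and 0.11 and -0.16, -0.07 and -0.05. Psmd2, the other scaffold, was at 0.09, -0.16 and -0.12, and a second, dimmer probe gave 0.30, 0.32 and 0.05, opposite in sign in the repeated and withdrawal groups. The ubiquitin receptor gene Psmd4 was at 0.04, -0.03 and -0.09. Psmd6, of the lid, was at 6.99, 6.86 and 7.57 on the acute arrays, 7.85, 7.84 and 7.65 on the repeated arrays and 7.50, 7.60 and 7.73 on the withdrawal arrays, against 7.83, 7.75 and 7.17 on the saline arrays. Acute replicates 1 and 2 were lower than all other arrays, and saline replicate 3 was the next lowest after them. The differences from saline were -0.45 ± 0.21, 0.20 ± 0.21 and 0.02 ± 0.21 (SE), and a second probe gave 0.21, 0.39 and 0.27, so the 2 probes differ in sign in the acute comparison. The other 6 lid genes lay between -0.20 and 0.11 on their brightest probes. Dimmer probes of Psmd7 gave -0.08, -0.02 and 0.05 and -0.29, 0.08 and -0.00, and a dimmer probe of Psmd11 gave -0.04, 0.10 and -0.28. Psmd14, the deubiquitinase of the lid, differed by -0.06, 0.01 and -0.11, and Psmd12 by -0.05, -0.19 and -0.19. A second probe of Psmd14 gave -0.06, 0.03 and 0.04, opposite in sign in the withdrawal group. For Psmd12 a second probe gave -0.19, 0.10 and -0.10, opposite in sign in the repeated group.

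Psmd5, a chaperone of base assembly that dissociates before the particle is complete, stood on the higher side. Its log2 intensity was 7.70, 7.67 and 7.54 on the acute arrays, 7.64, 7.54 and 7.63 on the repeated arrays and 7.43, 7.67 and 7.54 on the withdrawal arrays, against 7.47, 7.36 and 7.49 on the saline arrays. Acute and repeated arrays were all above the saline arrays, and withdrawal replicate 1 lay among the saline arrays. The differences were 0.20 ± 0.09, 0.16 ± 0.09 and 0.10 ± 0.09 (SE), with limma adjusted p values of 1.00, 0.636 and 0.794. The other base chaperones, Psmd9 and Psmd10, were at -0.09, 0.01 and 0.05 and -0.10, -0.13 and -0.08.

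The activators that cap the core without ATP did not all lie on the same side of saline, and whether they differed from each other was not tested. Psme1 and Psme2 encode the interferon-inducible PA28 ring, and Psme4 encodes PA200, a nuclear activator. Psme1 was at 10.34, 10.19 and 10.53 on the acute arrays, 10.45, 10.11 and 10.26 on the repeated arrays and 10.40, 10.30 and 10.40 on the withdrawal arrays, against 10.75, 10.47 and 10.59 on the saline arrays. Repeated and withdrawal arrays were all below the saline arrays, and acute replicate 3 overlapped with them. Psme2 was at 7.44, 7.50 and 7.23 on the acute arrays, 7.40, 7.04 and 7.22 on the repeated arrays and 6.96, 7.40 and 7.29 on the withdrawal arrays, against 7.64, 7.43 and 7.61 on the saline arrays. Again the repeated and withdrawal arrays did not overlap with saline, and acute replicates 1 and 2 did.

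Psme1 differed from saline by -0.25 ± 0.12, -0.33 ± 0.12 and -0.24 ± 0.12 (SE), and Psme2 by -0.17 ± 0.14, -0.34 ± 0.14 and -0.34 ± 0.14. Limma's adjusted p in the repeated group was 0.504 for Psme1 and 0.531 for Psme2. The withdrawal difference of Psme2 was -0.22 without withdrawal replicate 1. A second probe of Psme1 gave -0.17, -0.21 and -0.19. Both genes lie close together in the genome with Emc9 between them. Psme3, the nuclear PA28 form that interferon does not induce, differed by -0.08, 0.00 and 0.17.

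Psme4 ran the other way. Its log2 intensity was 9.91, 9.95 and 10.12 on the acute arrays, 10.11, 10.15 and 10.20 on the repeated arrays and 10.17, 10.17 and 10.13 on the withdrawal arrays, against 9.89, 9.83 and 10.04 on the saline arrays. All repeated and withdrawal arrays were above all saline arrays, and the acute arrays overlapped with saline. The differences were 0.07 ± 0.09, 0.23 ± 0.09 and 0.23 ± 0.09 (SE), with limma adjusted p values of 1.00, 0.519 and 0.626. A second, dimmer probe gave 0.36, 0.68 and 0.47, higher in each group. It was the 1 proteasome gene with an unadjusted p under 0.05 on the higher side in the repeated and in the withdrawal comparison.

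**Figure D4:**
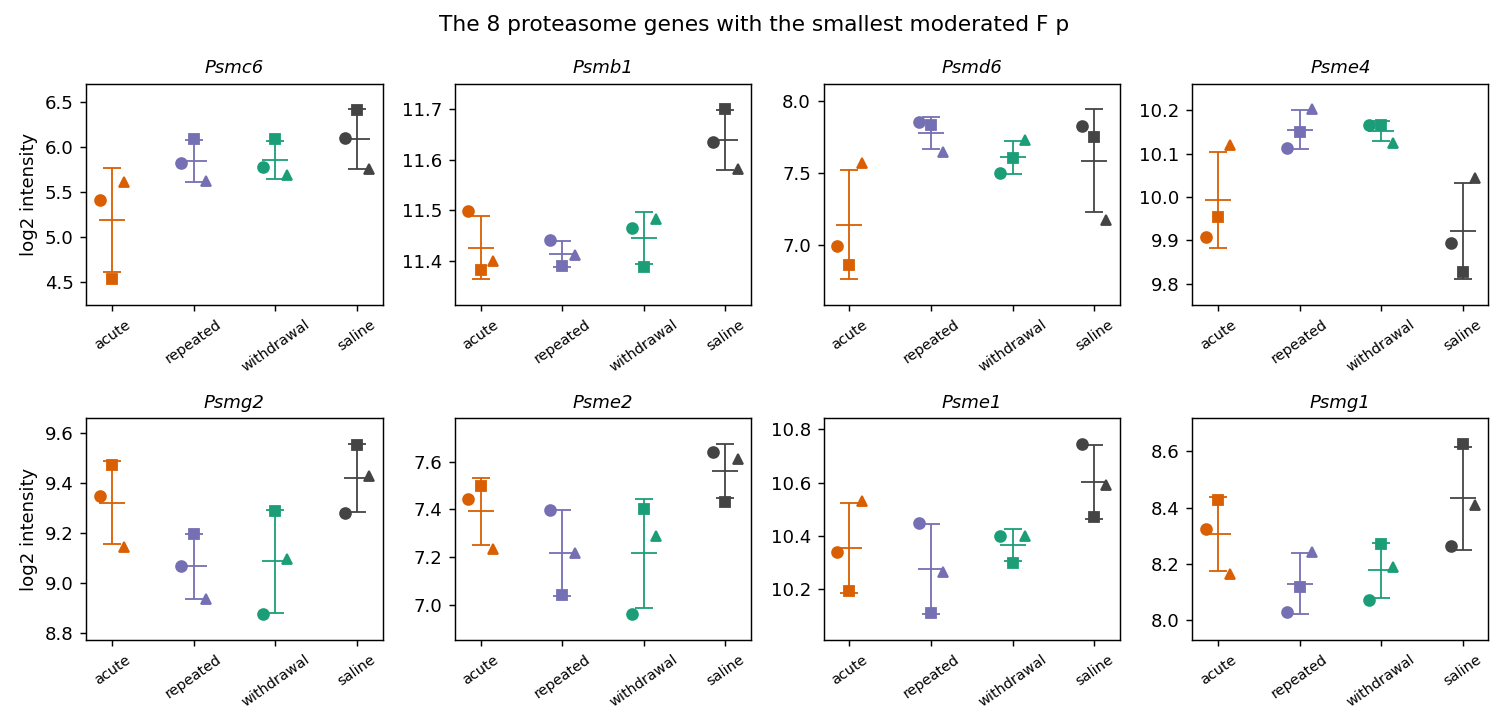
Log2 intensity on each array of the 8 proteasome genes with the lowest p in limma's moderated F test over the 4 groups, by treatment group; circles, squares and triangles are replicates 1, 2 and 3, and lines give the mean and SD. The y axes differ between panels and do not start at 0. Saline arrays lie above all cocaine arrays for Psmb1, acute arrays lie lowest for Psmc6, and repeated and withdrawal arrays lie above saline for Psme4.

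The moderated F test over the 4 groups gave 0 proteasome genes with an adjusted p under 0.05. Psmc6 had the lowest unadjusted F p, 0.042, with an adjusted p of 0.812. It was the 1 gene of 44 with an unadjusted F p under 0.05, where 5.42% of all genes had one. In 22 genes with 2 or more kept probes, all probes of the gene had the same sign in 13 genes for the acute, 16 for the repeated and 16 for the withdrawal comparison. Of the 28 further probes, which did not choose the genes' values above, 20, 19 and 19 were lower in those comparisons, with medians of -0.06, -0.08 and -0.09. These probes were read on the same arrays, so they are not independent of those values. The matching shares over the further probes of all genes were not computed.

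Between the cocaine groups, the median differences were closer to 0. Repeated minus acute had 30 of 44 genes lower, against 50.3% of all genes, with a median of -0.04. Withdrawal minus acute had 28 lower, against 50.2%, with a median of -0.05. Withdrawal minus repeated had 18 lower, against 49.3%, with a median of 0.02. In limma's test 0 proteasome genes had an adjusted p under 0.05 in any of the 3, while 0.00392% of probes (1 probe) did for repeated minus acute. At an unadjusted p under 0.05 the counts were 3, 3 and 0 in either direction, against 2.33% lower and 2.47% higher of all genes for repeated minus acute, 2.33% and 2.74% for withdrawal minus acute, and 0.754% and 1.18% for withdrawal minus repeated. Single arrays moved these values too. The median of repeated minus acute was -0.07 without acute replicate 3, that of withdrawal minus acute ran from -0.09 without withdrawal replicate 2 to -0.00 without withdrawal replicate 1, with -0.03 without acute replicate 1 or withdrawal replicate 3, and that of withdrawal minus repeated was -0.01 without repeated replicate 2, -0.03 without withdrawal replicate 2, 0.01 without repeated or withdrawal replicate 3 and 0.04 without withdrawal replicate 1. The count of 3 for repeated minus acute was 1 without acute replicate 2 or repeated replicate 1 and 6 without acute replicate 3. For withdrawal minus acute it was 0 without acute replicate 2 or withdrawal replicate 1, 5 without acute replicate 3, and 1 without acute replicate 1, withdrawal replicate 3 or any 1 repeated array, and for withdrawal minus repeated the count was 1 without withdrawal replicate 1 or 2.

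The series' criteria took 2, 2 and 0 genes, against 2.41%, 2.62% and 1.34% of all genes. Repeated arrays lay below all acute arrays in 4 genes and above in 3, against 5.41% and 5.24% of all genes. Withdrawal arrays lay below all acute arrays in 3 genes and above in 3, against 4.68% and 5.01%, and below all repeated arrays in 0 and above in 3, against 3.42% and 3.93%. Psmc6 was higher in repeated than in acute arrays by 0.66 ± 0.28 (SE), and in withdrawal than in acute arrays by 0.67 ± 0.28. Psmd6 was higher by 0.64 and 0.47 in these comparisons, but by 0.18 and 0.05 on its second probe. The limma adjusted p was 0.878 and 0.848 for both genes.

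Around the particle, 22 further genes were measured that do not carry the symbol prefix. They covered regulators of proteasome gene transcription, partners such as Sem1 and Pomp, deubiquitinases, ubiquitin ligases and shuttle proteins. Genes of the p97 segregase and of a ubiquitin-activating enzyme were also among the 22. Of these, 13, 9 and 7 were lower in acute, repeated and withdrawal arrays, with medians of -0.02, 0.02 and 0.04. In limma's test 0 of 22 had an adjusted p under 0.05, and 0 had an unadjusted p under 0.05 against saline. The transcription factor genes Nfe2l1 and Nfe2l2 differed from saline by 0.04, 0.02 and 0.17 and by -0.12, -0.06 and -0.09. Sem1, a small lid subunit, differed by -0.11, -0.16 and -0.13, Usp14, a deubiquitinase bound to the 19S particle, by -0.05, 0.22 and 0.17, and Rad23b, a shuttle for ubiquitinated proteins, by 0.00, 0.13 and 0.15.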

How the data were processed

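Biotin-labelled RNA from 12 pools was hybridised to Illumina MouseWG-6 v2.0 arrays. Per the series' design text, the authors background-subtracted and quantile-normalized the intensity values with BeadStudio, named without a version in the submitters' processing notes. The deposited tables give an intensity and a detection p-value per probe, once with the background and once without it. The 2 tables differ by a constant of 60.7. No depth applies to arrays, and their number limits the precision.

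Intensities were floored at 10 and log2-transformed, and 25478 of 45281 probes detected at p under 0.05 on at least 3 arrays were kept. The floor set 6.34% of these values. Of all probes, 34885 had 1 symbol, 18 had several and 10378 had none listed. The brightest probe stood for a gene. Limma 3.58.1 (R 4.3.3) fitted all 12 arrays with lmFit and eBayes (8 residual and 2.16 prior degrees of freedom), two-sided, with Benjamini-Hochberg adjustment over all kept probes and a threshold of 0.05. The code was tested on simulated data. Figures used matplotlib 3.10.9.

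The genes and lists were chosen with earlier results of these data known. Values on every array are given for the 8 genes with the lowest moderated F p, the gene with the lowest p in each direction in each comparison with saline, and the 6 active-site subunits. From other lists the 3 genes with the lowest F p may be named. Nfe2l1, Nfe2l2, Sem1, Pomp, Usp14, Rad23b and Irf1 were named after their values were seen. Replicate numbers were checked as pairs by correlating deviations from group means over probes: every pair correlated above 0.1 for repeated with saline (0.468, 0.344 and 0.133), withdrawal with saline (0.386, 0.293 and 0.166) and repeated with acute, but not for the other comparisons (acute with saline 0.459, 0.192 and 0.0649). Arrays of replicate 1 correlated at 0.386 to 0.468 in every comparison. Alternatives changed the floor, filter, background, probe rule, variance model, block and arrays.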

Additional observations from a re-analysis of the deposited data

How the results depend on the processing

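All counts of proteasome genes past the adjusted threshold stayed 0 under each alternative run, with lowest adjusted p values of 0.624, 0.306 and 0.398 for the acute, repeated and withdrawal comparisons with saline. Median differences from saline ranged over other settings from -0.083 to -0.055 in acute, -0.109 to -0.082 in repeated and -0.127 to -0.089 in withdrawal arrays, and from -0.093 to -0.045, -0.128 to -0.084 and -0.144 to -0.068 without 1 array. With the replicate block, the adjusted counts were 0 for repeated and withdrawal against saline. Each group held replicates 1 to 3, so the block could not change the differences or their medians. For withdrawal minus acute, deviations of same-numbered arrays correlated at 0.402, 0.124 and 0.0363 for replicates 1, 2 and 3. There the block gave 1 gene at an unadjusted p under 0.05 in place of 3. Such counts against saline were 5, 16 and 11 for the acute, repeated and withdrawal groups with no filter on detection and 4, 15 and 12 with limma's trended and robust variance, against 2, 9 and 6 as reported. Fitting only the groups compared gave 1 in acute and 3 in withdrawal arrays, and 0 for withdrawal minus acute. Without saline replicate 3 the median for the mean of the cocaine groups was -0.12, against -0.08. The mean of all probes gave 0.46 for Psme4 in repeated and 0.35 in withdrawal arrays, against 0.23 in both. Differences whose sign turned without 1 array included those of Psmb6 (0.03 without acute replicate 3, against -0.02), Psmb7 (0.00 without acute replicate 2, against -0.07) and Psmb10 in acute arrays (0.08 without saline replicate 2, against -0.05), and of Psmd6 in repeated and withdrawal arrays (-0.01 and -0.18 without saline replicate 3, against 0.20 and 0.02). The cause of these shifts was not tested. A block by BeadChip was not run, since no chip is given in the sources used here.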
